A study of Mus musculus with 9 samples.

Results

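The clustered protocadherins are cell surface adhesion proteins of the cadherin family, encoded by 3 neighbouring gene clusters named alpha, beta and gamma. Each alpha or gamma gene supplies a large first exon with its own promoter, which encodes the extracellular and membrane-spanning parts, and splices it to constant exons shared by the whole cluster. Each beta gene is a single exon with no shared part. In neurons the promoters are chosen in a largely random way, with DNA methylation keeping most of them silent and CTCF and cohesin joining a chosen promoter to distant enhancers, and the proteins bind like to like between cells. The C-type isoforms at the end of the alpha and gamma clusters are used in a less random way, and Pcdhgc3 is widely expressed outside the nervous system.

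The members were selected by symbol: the row name had to start with Pcdha, Pcdhb or Pcdhg followed by a letter or digit. This found 57 of the 18484 genes counted, of which 14 were Pcdha, 22 were Pcdhb and 21 were Pcdhg. The symbols Pcdha11 and Pcdhga8 each stood on 2 rows. The gene ENSMUSG00000007440, labelled Pcdha11, starts 117 bases from the RefSeq start of Pcdha10 and is called Pcdha10 here. The gene ENSMUSG00000023036, labelled Pcdhga8, is Pcdhgc4 in GENCODE and RefSeq and is called Pcdhgc4 here. All members lie on the plus strand of chromosome 18 in build GRCm38, with Pcdha at 36930184 to 37187661, Pcdhb at 37264938 to 37524479 and Pcdhg at 37661793 to 37841873.

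RNA was sequenced from 9 mammary tumours of BlgCre-NeuKI mice, with 1 library per tumour. These mice carry an activated rat Neu (Erbb2) sequence knocked into the mouse Erbb2 locus behind a loxP-flanked stop, which Cre driven by the Blg (beta-lactoglobulin) promoter removes mainly in luminal mammary cells, and all tumours analysed share this genotype. The high-amplified group, with a high copy number of the Erbb2/Neu locus, held 5 adenocarcinomas of no special type, AC(NST): the virgin mice gave MS1213.1, then MS1163.1 with MS1163.2, while MS1218.2 as well as MS1155.3 arose in parous mice. The second group, not/low-amplified, held MS1210.1 and MS1349.1, which were adenosquamous carcinomas (ASQC), and MS1166.1, an AC(NST). All 3 came from parous mice, as did the sarcoma MS1156.1, which is also labelled as not or low amplified and which the study left out of its group comparisons. Values for the groups are given in this order throughout. MS1163.1 and MS1163.2 carry the same mouse number, so the 5 high-amplified tumours represent 4 mouse numbers. The study's methods name MS1218.2 as the only sample that did not exceed their stated level of estimated tumour cell purity. Its copy number by genomic PCR and by exome sequencing also disagreed there. Digital droplet PCR and genomic PCR disagreed for MS1218.2 and for MS1213.1, and for MS1213.1 exome sequencing sided with genomic PCR. No high-amplified tumour was ASQC and no not/low-amplified tumour came from a virgin mouse.

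Counted reads per tumour ranged from 12501225 to 23912429. Erbb2, the locus that defines the groups, had 5053 to 101159 normalized counts in high-amplified, 1474 to 2669 in not/low-amplified tumours, with 1135 for the sarcoma, so the values followed the labels. A normalized count is a read count divided by a size factor for the tumour, taken as the median ratio to the geometric mean of the 9 tumours. In the sarcoma the 7 luminal markers summed to 860 normalized counts, against at least 44009 in every epithelial tumour. In bulk tumour RNA, a change in the number of cells of a type cannot be told apart from a change in RNA per cell.

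The shared exons limited what could be counted. Only reads that mapped to 1 place were kept, and a read in a constant exon belongs to every gene of its cluster. In the GENCODE M21 annotation the exonic bases that no other member covers made up 45.1% to 62.0% of a Pcdha gene, 33.2% to 72.2% of a Pcdhg gene and at least 90.3% of a Pcdhb gene. Of all windows of 76 bases, the read length, in the annotated transcripts, a median of 43.3% per Pcdha gene, 56.1% per Pcdhg gene and 98.8% per Pcdhb gene occurred in no other member. The beta genes therefore remained nearly fully countable although they resemble each other, with Pcdhb21 the lowest at 91.1%. Later annotation also places read-through and antisense transcripts over some members. With those counted as other genes, the share that occurs in no other gene was 1.59% for Pcdhga10, 9.25% for Pcdha4 and 20.4% for Pcdha11. It was 28.3% for Pcdhga11, 35.7% for Pcdhgc3 and 37.1% for Pcdhb12, and some other members also lost windows. The study describes its alignment as unstranded. The annotation release and the strand setting of the counting step are not given in the sources used here, so values of these genes are uncertain in level. Levels of genes are compared per kilobase of the exonic bases no other member covers. Shares of reads are given as counted, without correction for length, and do not rank genes by level.

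The members together took 0.0504% to 0.0878% of counted reads in the 5 high-amplified, 0.0177% to 0.0214% in the 3 not/low-amplified tumours, with 0.161% for the sarcoma. The summed normalized count of all 57 was 9552, 13163, 9186, 8115 and 12686 in the high-amplified tumours. Without high amplification it was 3422, 2975 and 3109, and the sarcoma had 28304. Every high-amplified tumour was thus above every not/low-amplified tumour, by 2.37-fold between the nearest tumours and by 3.33-fold between the group means of 10540.4 ± 2245 (SD, n = 5) and 3169 ± 229 (SD, n = 3). The sarcoma was 2.15-fold above the highest epithelial tumour. These sums are over genes chosen with results of these data known, and they carry no test.

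**Figure D1:**
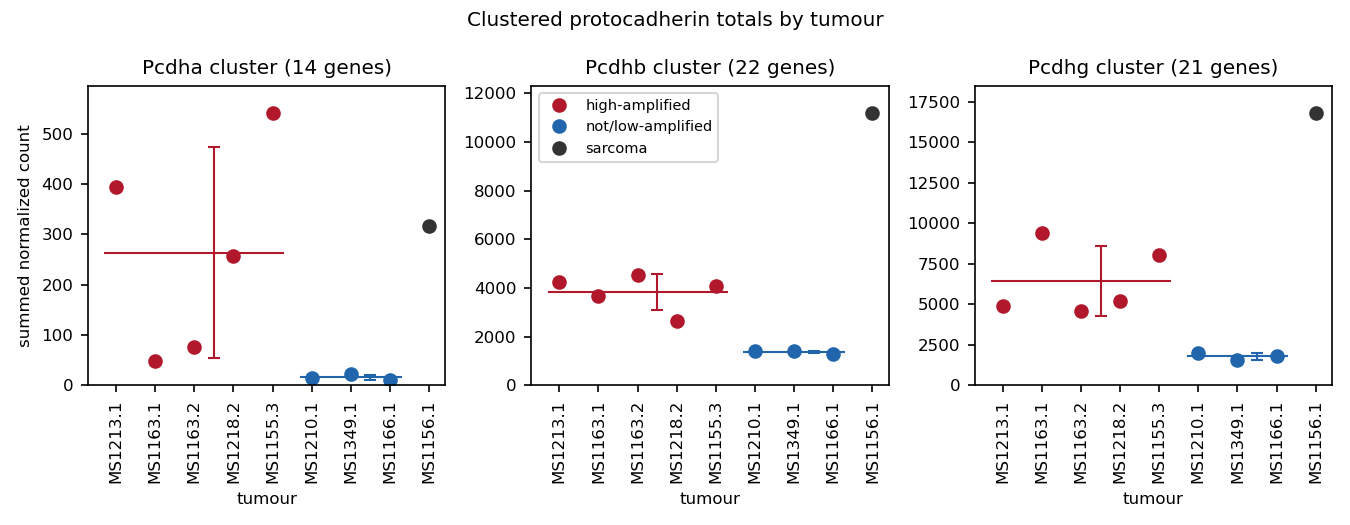
Summed normalized counts of the Pcdha, Pcdhb and Pcdhg clusters in each tumour, on linear axes from 0. Points are tumours, lines the group means and bars the SD. In every panel all 5 high-amplified tumours lie above all 3 not/low-amplified tumours, and in the Pcdhb and Pcdhg panels the sarcoma is highest. The Pcdha totals of the high-amplified tumours spread from 49.2 to 541, against at most 21.8 in the not/low-amplified tumours.

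Pcdhg supplied 49.9% to 71.7% of member reads in every tumour and Pcdhb 28.0% to 49.3%. Pcdha supplied 0.368% to 4.26%. The clusters therefore kept the same order in all 9 tumours apart from near-equal shares of Pcdhb and Pcdhg in MS1163.2. Of the 57 members, 54 reached 10 normalized counts in at least 1 tumour and 32 did so in all 9. Pcdhb1, which lies apart from the rest of its cluster, had 0 to 1.35 normalized counts and was the only Pcdhb gene that reached 10 in no tumour.

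**Figure D2:**
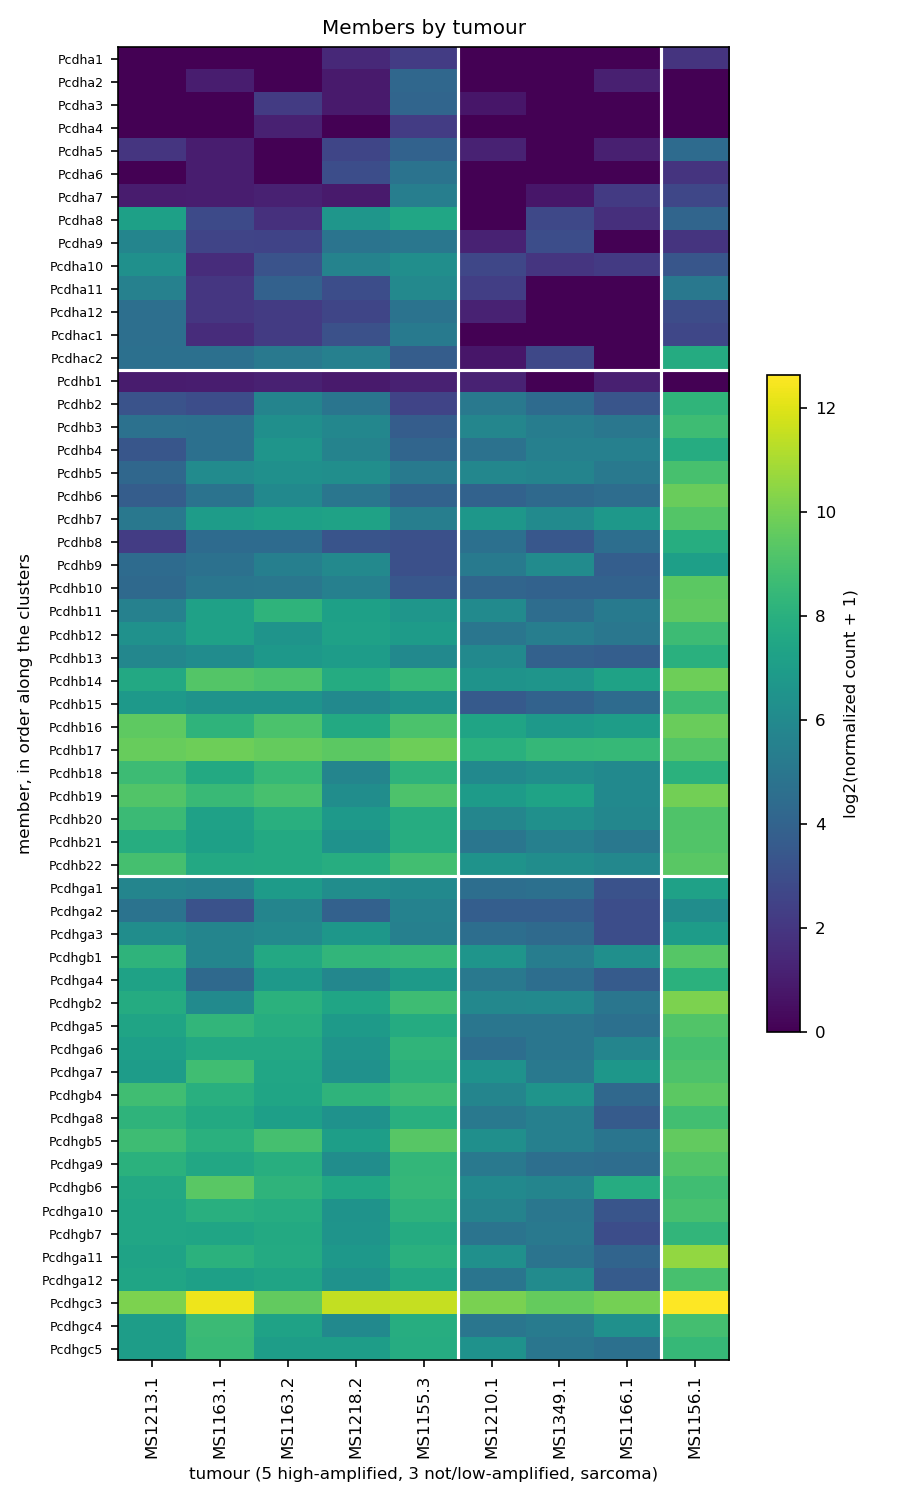
Level of each of the 57 members (rows, in order along the clusters) in each tumour (columns), as log2(normalized count + 1). The Pcdha rows are the darkest, with most of their signal in MS1213.1, MS1218.2, MS1155.3 and, for Pcdhac2, the sarcoma; colours are not corrected for gene length, so they compare tumours within a row.

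Pcdhgc3, a C-type gamma isoform, had the most counts per kilobase in all 9 tumours. Its normalized counts were 1122, 5092, 776, 2849.8 and 2876 in high-amplified tumours, 1068, 806 and 1028 in not/low-amplified tumours, with 6302 for the sarcoma. The high-amplified values spread widely and their lowest, in MS1163.2, lay below all 3 not/low-amplified tumours. Per kilobase its mean over the 8 epithelial tumours was 578, ahead of Pcdhb17 at 137 and Pcdhgb6 at 99.1. Its share of Pcdhg reads was 22.9%, 54.0%, 16.9%, 54.7% and 35.6% in high-amplified tumours, 53.1%, 51.6% and 57.3% in not/low-amplified tumours, with 37.5% for the sarcoma. The not/low-amplified shares lay close together and the high-amplified shares did not.

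Pcdhb17 had the largest share of Pcdhb reads in all 8 epithelial tumours, at 17.8% to 27.2%. In the sarcoma it took 5.39%, and Pcdhb19 had the largest share of reads, at 8.64%. Pcdhb genes differ in length, so this share does not make Pcdhb19 the highest beta gene by level there. No single isoform dominated Pcdhg after Pcdhgc3: the next isoform took 4.70% to 12.3% and was Pcdhgb1, Pcdhgb4, Pcdhgb5 or Pcdhgb6 in the epithelial tumours and Pcdhga11 in the sarcoma.

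**Figure D3:**
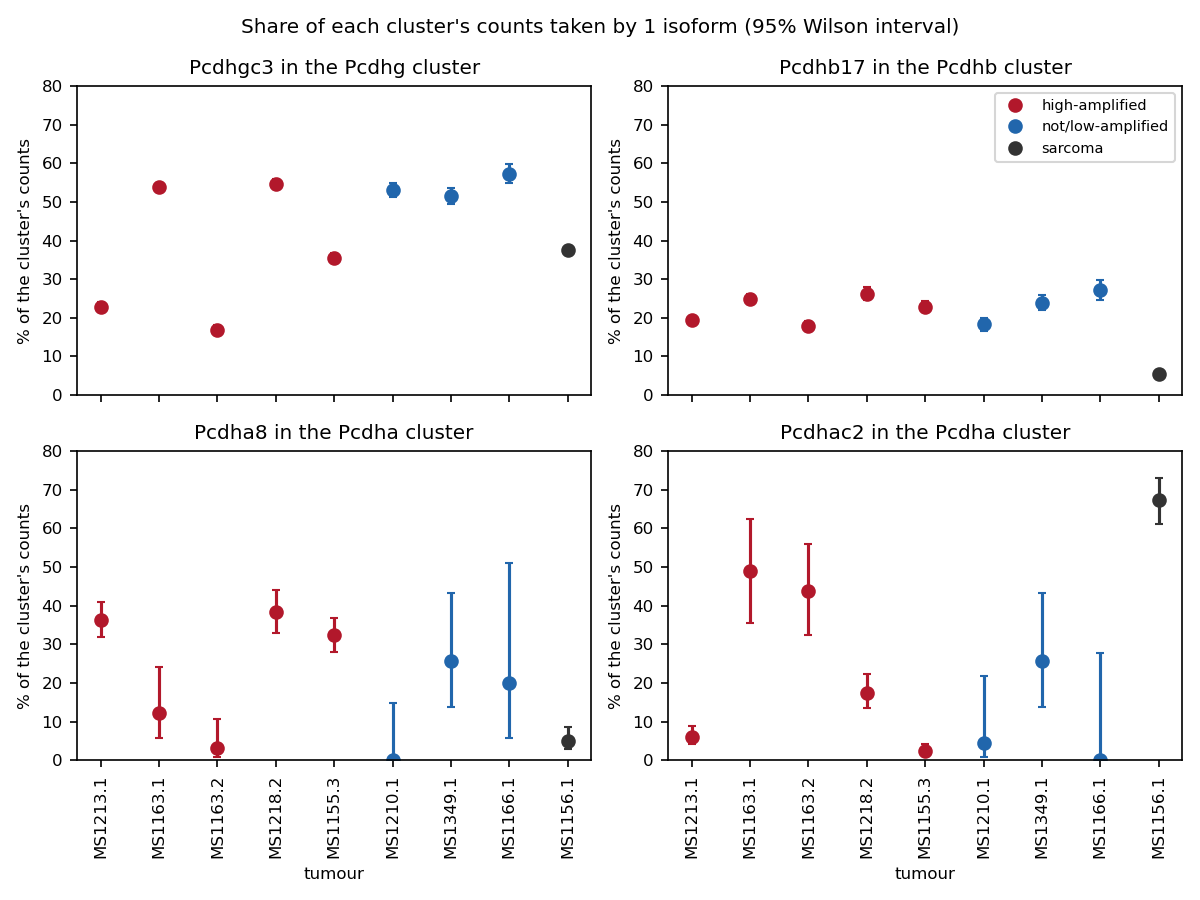
Share of a cluster's reads taken by Pcdhgc3, Pcdhb17, Pcdha8 and Pcdhac2 in each tumour (percent), with 95% Wilson intervals for counting error. Pcdhgc3 took 51.6% to 57.3% of Pcdhg reads in the 3 not/low-amplified tumours and 16.9% to 54.7% in the 5 high-amplified tumours; the Pcdha intervals of the not/low-amplified tumours are wide because the cluster had 10 to 31 reads there.

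The comparison by amplification status addressed the difference the study placed first, between epithelial tumours with and without high amplification. It was fitted on the whole table with edgeR's quasi-likelihood test, and a gene was called where the Benjamini-Hochberg adjusted p was below 0.05 and the absolute log2 fold change above 1. Of 14007 genes that reached 10 counts in 3 or more epithelial tumours, 61 were called higher in high-amplified tumours (0.435%) and 68 lower (0.485%). Among the 47 members tested, 4 were called higher and 0 lower: Pcdhb15, Pcdhb17, Pcdhga5 and Pcdhga9. At an unadjusted p under 0.05, 37 of the 47 were higher and 0 lower, where 11.8% and 11.0% of all genes tested were. DESeq2 called 32 of the 47 higher, against 6.31% of all genes, and 0 lower, against 4.32%. The median log2 fold change was 1.97 over the members and 0.02 over all genes tested. Of the 47, 4 Pcdha genes (Pcdha8, Pcdha10, Pcdha11 and Pcdhac2) reached 10 counts in high-amplified tumours only, so they had to appear higher. All 4 are among the 37 and among the 32. The other 10 members, 9 Pcdha genes and Pcdhb1, were not tested.

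Pcdhga5, a gamma isoform of the A type, had 162, 321, 229, 118 and 217 normalized counts in the high-amplified tumours and 29.7, 30.2 and 24.0 in the not/low-amplified tumours. The groups did not overlap, and the log2 fold change was 2.91 ± 0.45 (SE; adjusted p = 0.0287, edgeR). Pcdhga9, of the same type, had 265, 191, 241, 72.0 and 331 against 33.7, 23.2 and 21.7. Its log2 fold change was 3.07 ± 0.55 (SE; adjusted p = 0.0394, edgeR), the largest of the 4, and MS1218.2 was the lowest high-amplified tumour for both genes.

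Pcdhb17 had 827, 914, 808, 697 and 928 normalized counts in the high-amplified tumours and 256, 334 and 354 in the not/low-amplified tumours. This was the narrowest spread of the 4 relative to its level, with a log2 fold change of 1.43 ± 0.24 (SE; adjusted p = 0.0339, edgeR). Pcdhb15 had 107, 87.3, 87.5, 62.4 and 89.3 against 10.8, 14.7 and 20.6. Its log2 fold change was 2.52 ± 0.47 (SE; adjusted p = 0.0461, edgeR). Pcdhb15 and Pcdhb17 are separated along the cluster by Pcdhb16 only, and both are single exons.

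The calls depended on which tumours were included. Of 18 alternatives, Pcdhb15 was called in 5 and the other 3 genes in 6 each, with adjusted p-values from 2.70e-09 to 0.914 over the 4 genes. Without MS1218.2, edgeR called 20 members higher, 10 Pcdhb and 10 Pcdhg, where 5.44% of all genes were called higher. Leaving out any other single tumour, averaging MS1163.1 and MS1163.2, fitting parity as a covariate, or keeping only parous or only AC(NST) tumours left 0 members called. Few genes of any kind were called higher in those fits: 0% to 0.195% of all genes when 1 other tumour was left out, 0.129% with the MS1163 tumours averaged, 0% with the parity covariate or parous tumours only and 0.0516% with AC(NST) tumours only. In all these fits with epithelial tumours the median log2 fold change of the members stayed between 1.71 and 2.22.

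Separation of the groups was seen in 23 of the 47 members tested, whose lowest high-amplified value exceeded the highest not/low-amplified value, where 7.50% of all genes tested were. These were 14 of 21 Pcdhg, 8 of 21 Pcdhb and Pcdhac2, which passed the count filter through high-amplified tumours only. The reverse held for 0 members and for 8.09% of all genes. Without MS1218.2 the count was 27, where 16.5% of all genes separated.

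The fold changes were not even along the clusters. Pcdhb2 to Pcdhb10 had log2 fold changes from -0.63 to 0.83, with Pcdhb2 at -0.09 ± 0.85 (SE), Pcdhb5 at 0.22 ± 0.58, Pcdhb6 at 0.67 ± 0.64, Pcdhb8 at -0.63 ± 0.68 and Pcdhb10 at 0.83 ± 0.60. None of these differed from 0 by more than 1.5 SE, and their normalized counts overlapped between the groups. From Pcdhb11 onwards every Pcdhb gene lay between 1.43 and 2.52, and all 21 Pcdhg genes lay between 1.42 and 3.07. The summed count of Pcdhb1 to Pcdhb13 was 334, 714, 1094, 922 and 433 in the high-amplified tumours and 522, 407 and 375 in the not/low-amplified tumours, so these groups overlapped. That of Pcdhb14 to Pcdhb22 was 3924, 2965, 3435, 1729 and 3637 against 874, 985 and 927, with no overlap. This division of the cluster was made after the values were seen, and the difference between its parts was not tested.

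**Figure D4:**
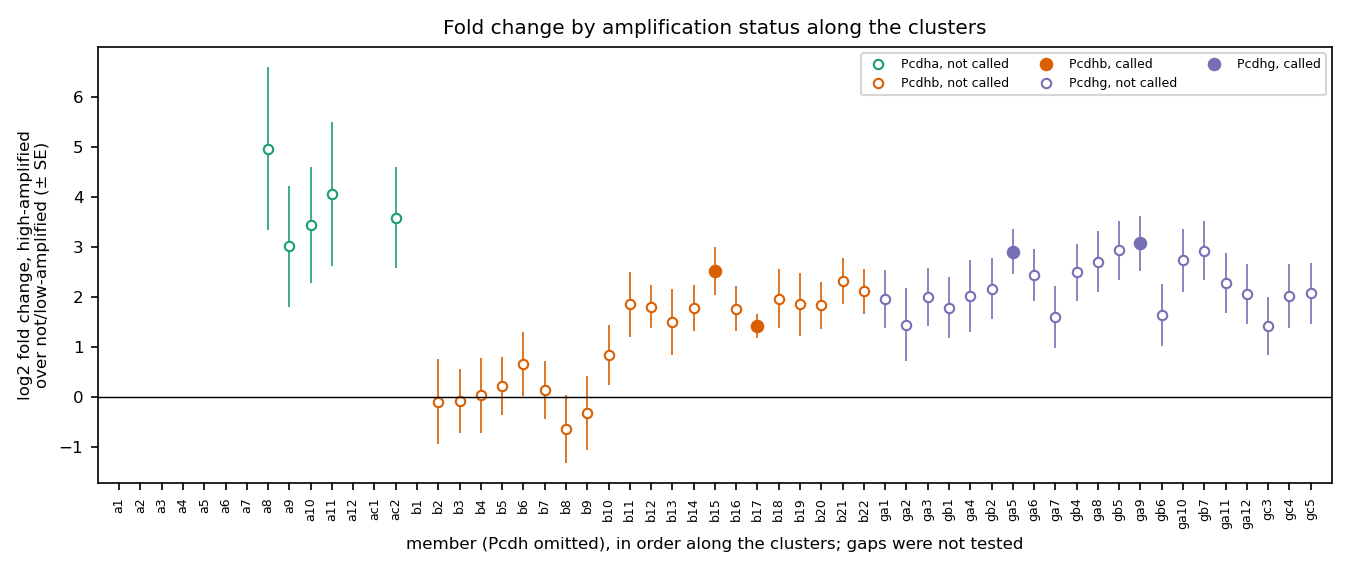
Log2 fold change of the 47 members tested, high-amplified over not/low-amplified, with SE bars, in order along the clusters. Filled points are the 4 members called by edgeR (Pcdhb15, Pcdhb17, Pcdhga5 and Pcdhga9); points from Pcdhb2 to Pcdhb10 lie near 0 and those from Pcdhb11 to the end of Pcdhg lie between 1.42 and 3.07.

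Other abundant beta genes behaved like Pcdhb17 in direction without being called by edgeR. Pcdhb16 had 726, 299, 524, 199 and 527 normalized counts against 163, 114 and 128, and a log2 fold change of 1.77 ± 0.44 (SE; adjusted p = 0.0792, edgeR). Pcdhb20 had 382, 149.5, 251, 114 and 223 against 54.6, 79.4 and 56.1, with 1.83 ± 0.47 (SE; adjusted p = 0.0814, edgeR). Pcdhb21 had 231, 144, 199, 86.1 and 229.5 against 30.4, 44.9 and 32.1, with 2.32 ± 0.46 (SE; adjusted p = 0.0530, edgeR). In all 3 genes the groups were apart, and MS1218.2 was again the lowest high-amplified tumour.

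Among the gamma genes, Pcdhgb1 had 292, 53.2, 197, 318 and 340.0 normalized counts against 94.4, 40.0 and 77.8. Its groups overlapped through MS1163.1, and its log2 fold change was 1.78 ± 0.61 (SE; adjusted p = 0.134, edgeR). Pcdhgb6 had 197, 676, 299.7, 180.1 and 344 against 63.4, 52.0 and 221, with 1.64 ± 0.62 (SE; adjusted p = 0.164, edgeR). Here the AC(NST) tumour MS1166.1 reached the high-amplified range and the 2 ASQC tumours did not.

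The C-type gamma isoforms had log2 fold changes of 1.42 ± 0.57 (SE) for Pcdhgc3, 2.02 ± 0.64 for Pcdhgc4 and 2.08 ± 0.61 for Pcdhgc5. Their adjusted p-values were 0.182, 0.120 and 0.102 (edgeR). Pcdhgc4 had 129, 387, 151, 62.4 and 233 normalized counts against 29.7, 37.2 and 79.0, and Pcdhgc5 had 131, 363, 129, 131 and 225 against 86.3, 29.5 and 24.0. Median log2 fold changes by type were 2.16 for 12 A genes, 2.33 for 6 B genes and 2.02 for these 3 C genes.

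The Pcdha cluster was the least expressed and the most uneven. Its summed count was 395, 49.2, 76.7, 257 and 541 in the high-amplified tumours, 14.8, 21.8 and 11.4 in not/low-amplified tumours, with 317 for the sarcoma. The 2 tumours with mouse number MS1163 were therefore nearer to the not/low-amplified tumours than to the other high-amplified tumours. The number of Pcdha genes at 10 normalized counts or more was 7, 1, 2, 4 and 12 in the high-amplified tumours, 0 in each not/low-amplified tumour and 4 in the sarcoma.

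Pcdha8, the Pcdha gene with the most counts per kilobase, had 143, 6.02, 2.40, 98.4 and 175 normalized counts in the high-amplified tumours and 0, 5.62 and 2.29 in the not/low-amplified tumours. Pcdha10 followed the same tumours, with 79.1, 2.01, 8.39, 48.3 and 75.7 against 5.40, 2.81 and 3.43. So did Pcdha9, with 52.1, 5.02, 4.79, 28.1 and 31.0 against 1.35, 7.02 and 0. Their log2 fold changes were 4.97 ± 1.63 (SE), 3.44 ± 1.16 and 3.01 (SE 1.2), with adjusted p-values of 0.127, 0.133 and 0.178 (edgeR). Pcdha8 and Pcdha10 passed the count filter through high-amplified tumours only, so their direction was set by the filter. These 3 neighbours were high together in MS1213.1, MS1218.2 and MS1155.3 and low in MS1163.1 and MS1163.2. MS1155.3 had the highest epithelial value of 9 of the 12 Pcdha genes that reached 10 normalized counts in an epithelial tumour. The share of all genes with their highest epithelial value in that tumour was not counted.

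The C-type alpha isoforms did not share a pattern. Pcdhac2 had 24.2, 24.1, 33.6, 44.8 and 12.4 normalized counts in the high-amplified tumours, 0.674, 5.62 and 0 in the not/low-amplified tumours, with 214 for the sarcoma. It was the only tested Pcdha gene whose groups were apart (Pcdha12 and Pcdhac1 were also apart but not tested), and it led the cluster in MS1163.1 and MS1163.2, with 49.0% and 43.8% of Pcdha reads, and in the sarcoma, with 67.4%. Its log2 fold change was 3.59 ± 1.01 (SE; adjusted p = 0.0939, edgeR), but it passed the count filter through high-amplified tumours only. Pcdhac1 had 23.3, 2.01, 3.6, 7.91 and 34.7 normalized counts against 0 in each not/low-amplified tumour and 5.38 in the sarcoma, and was not tested.

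MS1163.1 and MS1163.2 share a mouse number and differed in several isoforms. Of 44 members with at least 10 normalized counts in either tumour, 16 were at least 2-fold apart, where 17.9% of all such genes were. Pcdhgc3 was 6.57-fold higher in MS1163.1, and the neighbouring Pcdhgc4 and Pcdhgc5 were 2.56-fold and 2.81-fold higher there. At the other end of the cluster, Pcdhga2 and Pcdhga4 were 6.57-fold and 5.72-fold higher in MS1163.2, as was Pcdhb2 by 7.17-fold. The total over all members differed less, at 13163 and 9186. These members were named after their values were seen, and the comparison is of 2 libraries without a test.

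The summed Schwann cell markers were higher with high amplification though single markers went both ways, and neuronal markers other than Map2 were near 0. The 9 Schwann markers summed to 5858 to 9468 normalized counts in the high-amplified tumours and 2330 to 4151 in the not/low-amplified tumours, and 2 of the 7 tested, Cdh19 and S100b, were called higher (adjusted p = 0.0175 and 0.0433, edgeR), S100b by a log2 fold change of 5.63 ± 1.05 (SE). Cdh19 had 725 to 3094 normalized counts in high-amplified and 4.58 to 35.1 in not/low-amplified tumours. DESeq2 called 3 of the 7 tested higher, where 6.31% of all genes were, and 0 lower, where 4.32% were. Of the 7 tested, 5 had log2 fold changes above 0. Mbp and Ngfr were below 0, at -0.42 ± 0.26 and -2.44 ± 1.20 (SE; adjusted p = 0.355 and 0.257, edgeR). Foxd3, 1 of the 9 markers, was near 0 in both groups, at 0 to 4.39 normalized counts in the high-amplified and 0 to 0.702 in the not/low-amplified tumours. Of the 6 neuronal markers found, 1 to 3 reached 10 normalized counts in any tumour, and Map2 made up most of their sum. The 8 fibroblast markers summed to 47998 to 457682 in high-amplified and 41975 to 120524 in not/low-amplified tumours, with the highest value in MS1218.2. All 8 had log2 fold changes above 0, with a median of 1.01. The same held for the 5 pericyte and smooth muscle markers, with a median of 0.94, and edgeR called 0 in these 2 lists. The 4 basal markers summed to 213 to 4546 in high-amplified and 9459 to 54702 in not/low-amplified tumours. The 7 luminal markers summed to 44009 to 64556 and 80823 to 142108, also without overlap. edgeR called 0 of either list. At an unadjusted p under 0.05 it had 3 of 7 luminal and 2 of 4 basal markers lower, where 11.0% of all genes were. DESeq2 called 2 luminal markers lower, where 4.32% of all genes were. The part of these cells in the protocadherin values was not tested.

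The 18 genes of promoter choice and silencing that were found, among them Ctcf, the cohesin subunits, the DNA methyltransferases and Smchd1, included 0 called in either direction, with a median log2 fold change of 0.09. The largest was that of Dnmt3a, a de novo DNA methyltransferase, at 0.99 ± 0.37 (SE; adjusted p = 0.154, edgeR). The 17 tested genes for binding partners and processing of the proteins had a median of -0.25 and 0 called by edgeR. Among them Ptk2, a kinase that binds the constant domains, had 1.25 ± 0.40 (SE; adjusted p = 0.120, edgeR). The 9 flanking genes found, which include Taf7 and Slc25a2 between Pcdhb and Pcdhg, had a median of 0.03 and 0 called, and their summed counts were 4278 to 5220.0 against 5343 to 5983. Of the 9 non-clustered protocadherins tested, which lie elsewhere in the genome or stand alone, 0 were called by edgeR, and the highest fold changes were those of Pcdh11x at 4.75 ± 1.28 and Pcdh18 at 3.51 ± 0.74 (SE; adjusted p = 0.0868 and 0.0579, edgeR). At an unadjusted p under 0.05, edgeR had 3 of 18 genes of promoter choice and 1 of 17 binding partners higher. Of the 9 non-clustered protocadherins tested, 3 were higher, where 11.8% of all genes were. Of the 9 flanking genes, 2 were lower, where 11.0% of all genes were. DESeq2 called 2 of the 9 non-clustered protocadherins and Ptk2 higher, where 6.31% of all genes were. It called 0 of the genes of promoter choice and 0 of the flanking genes.

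The comparison of histotype set the 2 ASQC tumours against the 6 AC(NST) tumours. edgeR called 0 of the 47 members tested in either direction, where 0.221% of all genes were called higher in ASQC and 0.0143% lower. At an unadjusted p under 0.05, 14 members were lower in ASQC and 0 higher, where 4.33% and 4.38% of all genes were. DESeq2 called 7 members lower (1.42% of all genes) and 0 higher (1.24% of all genes). In 6 members every ASQC tumour lay below every AC(NST) tumour, where 4.98% of all genes did, and in 0 above, where 5.26% did. The smallest p-values were those of Pcdhgb6 and Pcdhga6, with log2 fold changes of -2.46 ± 0.63 and -2.65 ± 0.75 (SE; adjusted p = 0.243 and 0.290, edgeR), followed by Pcdhb15 at -2.56 ± 0.76, Pcdhb17 at -1.35 ± 0.43 and Pcdhb14 at -1.90 ± 0.62. Pcdhga6 had 22.3 and 29.5 normalized counts in the ASQC tumours and 52.7 in MS1166.1, below the 93.1 to 304 of the high-amplified tumours. For Pcdhb14 the ASQC values were 87.0 and 94.1, MS1166.1 had 153 and the high-amplified tumours 197 to 599.

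Both ASQC tumours are not/low-amplified, so histotype and amplification status can be separated only by MS1166.1. Its member total of 3109 lay between those of the ASQC tumours, 3422 and 2975. Within the not/low-amplified group the median log2 fold change of the 36 members tested turned to 0.34. In this comparison of 2 tumours against 1, edgeR called 0 of all 12355 genes. Among AC(NST) tumours alone, 5 high-amplified against MS1166.1, the median by amplification status was 2.22.

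The comparison of parity set 3 virgin against 5 parous epithelial tumours, and the parous group held all 3 not/low-amplified tumours. Log2 fold changes, virgin over parous, were above 0 in 45 of the 47 members tested, with a median of 0.82 against -0.10 over all genes. edgeR called 0 of 47 members and 0 of all 14007 genes (0% in each direction), and 3 members were higher in virgin tumours at an unadjusted p under 0.05, where 5.60% of all genes were, and 0 lower (8.57% of all genes). DESeq2 called 0 of the 42 members it gave an adjusted p, higher (0.664% of all genes) or lower (2.92%). In 0 members did the virgin and parous ranges separate, where 3.89% of all genes were higher and 5.37% lower in every virgin tumour. Among high-amplified tumours the member totals were 9552, 13163 and 9186 in virgin and 8115 and 12686 in parous mice, so the totals overlapped.

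The sarcoma, a single tumour and so without a replicate check, had the highest value of 19 of 21 Pcdhb and 19 of 21 Pcdhg genes that reached 10 normalized counts in an epithelial tumour. How often the sarcoma was highest over all genes was not counted, so these counts are a description only. Of 54 members with at least 10 normalized counts in a tumour, 18 were at least 2-fold above the highest epithelial tumour, where 9.97% of all genes were, and 0 were 2-fold below the lowest, where 7.46% were. The 18 were 14 Pcdhb, 3 Pcdhg and Pcdhac2. All 12 expressed genes from Pcdhb2 to Pcdhb13 were among them, with Pcdhb15 and Pcdhb21. Pcdhb10 stood furthest out, at 689.7 normalized counts (631 to 752, 95% Poisson interval for counting error) against 9.93 to 44.8 in the epithelial tumours, 15.4-fold above the highest. Pcdhb6 had 847 (782 to 916) against 12.1 to 62.3, or 13.6-fold. Pcdhb8 was 9.41-fold, Pcdhb5 6.23-fold and Pcdhb2 5.98-fold above the highest epithelial tumour, at 229, 500.1 and 301 normalized counts.

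**Figure D5:**
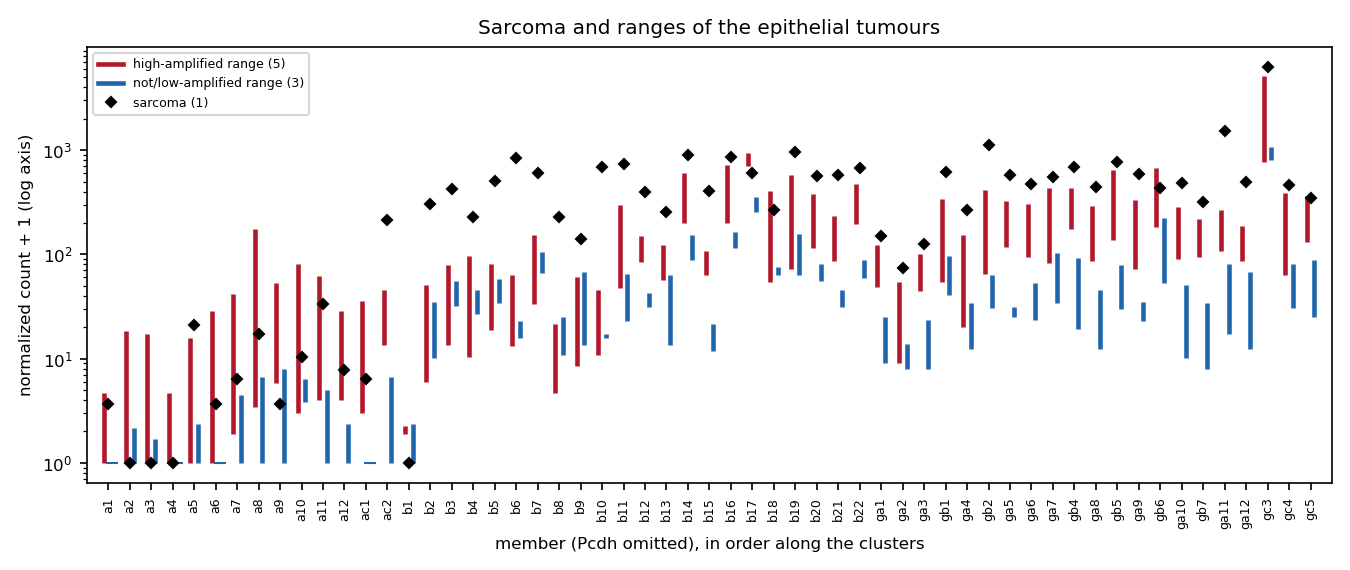
Normalized count + 1 of each member on a log axis, in order along the clusters: the sarcoma (diamonds) with the ranges of the 5 high-amplified and 3 not/low-amplified tumours (bars). The sarcoma lies at least 2-fold above every epithelial tumour from Pcdhb2 to Pcdhb13, and below the high-amplified range at Pcdhb17.

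The summed count of Pcdhb1 to Pcdhb13 in the sarcoma was 5353, 4.89-fold above the highest epithelial tumour, and that of Pcdhb14 to Pcdhb22 was 5829, 1.49-fold above. Of these 2 sums, the one that overlapped between the epithelial groups was the one in which the sarcoma stood further apart. Its last genes, Pcdhb11 to Pcdhb13, differ from the rest of that part. They had log2 fold changes of 1.86, 1.81 and 1.49 by amplification status and were also at least 2-fold above in the sarcoma. Pcdhb17, the leading beta gene of the epithelial tumours, had 602 normalized counts in the sarcoma, between the 2 epithelial groups. Per kilobase the sarcoma had 129 for Pcdhb17, 242 for Pcdhb10 and 226 for Pcdhb6.

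In the Pcdhg cluster Pcdhga11 stood furthest above the epithelial range, with 1527 normalized counts (1439.7 to 1619, 95% Poisson interval) 5.76-fold above the highest epithelial value of 265. It was named after its values were seen, and its level is among those that overlapping transcripts leave uncertain. Pcdhgc3 was 1.24-fold above its highest epithelial tumour, and Pcdhgb6 and Pcdhgc5 lay within the epithelial range. In the Pcdha cluster Pcdhac2 was 4.77-fold above the highest epithelial tumour, while Pcdha8 at 16.1, Pcdha9 at 2.69 and Pcdha10 at 9.41 were below the 3 high-amplified tumours that expressed them. The sarcoma also had the highest Schwann marker sum, 86984 normalized counts with all 9 markers at 10 or more, the highest fibroblast sum, 613629, and 22323 normalized counts of non-clustered protocadherins against at most 7104 elsewhere. The part of these in its protocadherin values was not tested.

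Profiles across the 57 members, as counts per kilobase, were broadly alike. Spearman's rho was 0.763 to 0.920 between high-amplified tumours, 0.773 to 0.811 between not/low-amplified tumours, 0.576 to 0.837 across these groups and 0.640 to 0.788 between the sarcoma and epithelial tumours. The highest value joined MS1213.1 with MS1155.3. These values are across genes of differing mean level, which all tumours share, and are a description only.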

How the data were processed

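The authors sequenced rRNA-depleted RNA with a directional kit, aligned it with STAR to mouse build 38 allowing uniquely mapped reads only, and counted reads per gene with HTSeq; the submitters' notes also name FastQC, Cufflinks and DESeq2. The deposited count files hold raw counts for all 9 tumours. The deposited signal files hold the counts of the 8 epithelial tumours divided by a size factor per tumour, and were used to check that scaling: factors over 9 tumours were 1.03 to 1.05 times those of the authors. Normalized counts were computed over 9 tumours.

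Tests used edgeR 4.0.16 (TMM scaling, quasi-likelihood, Benjamini-Hochberg adjustment over 14007 genes), with DESeq2 1.42.0 and limma 3.58.1 (log2 of normalized count + 1) as alternatives, in R 4.3.3. The tests were tested on simulated data. SE is the log2 fold change divided by the square root of F. Each tumour was 1 sample; p-values measure the spread between tumours, 2 of which share a mouse number. Named members were those called, the 3 highest per kilobase in each cluster, the C-type isoforms, the 5 smallest p-values by amplification status and by histotype, and the 5 furthest above the epithelial range in the sarcoma. Members and lists were chosen with earlier results of these data known. Intervals cover counting error only. Values of some single marker genes are not reported here.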

Additional observations from a re-analysis of the deposited data

How the results depend on the processing

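The number of members called by amplification status (4 with edgeR) was 32 with DESeq2 (6.31% of all genes higher) and 12 with limma (0.9%). It was 0 with MS1163.1 and MS1163.2 averaged, with parity as a covariate, with parous tumours only, with AC(NST) tumours only and with the sarcoma set beside the not/low-amplified tumours. Leaving out each tumour gave 0 to 20, the highest without MS1218.2. Other scalings and no filter gave 4 or 5. By histotype (0) DESeq2 called 7 lower, and leaving out each tumour gave 0. By parity (0), leaving out each tumour gave 0 to 1, the 1 without MS1155.3, where 0.706% of all genes were called higher and 0.353% lower. In that fit 21 of 44 members were higher in virgin tumours at an unadjusted edgeR p under 0.05. So were 1693 of all 13881 genes, and the members' median log2 fold change was 1.34. The parity result therefore depended on this tumour. With the sarcoma beside the not/low-amplified tumours, log2 fold changes reversed to -0.93 for Pcdhac2, -1.52 for Pcdhb5, -2.91 for Pcdhb6, -2.72 for Pcdhb10 and -0.33 for Pcdhb15, all with high adjusted p-values (0.410 to 0.914); that setting adds a tumour with high values to the low group. Pcdhb2 turned from -0.09 to 0.11, 0.13, 0.16 and 0.42 without MS1213.1, MS1163.1, MS1155.3 and MS1210.1, over a range of -0.74 to 0.42 when each tumour was left out. The members' median by histotype reversed from -1.65 to 0.34 within the not/low-amplified tumours. In the sarcoma 28 members passed at 1.5-fold (13.5% of all genes), and leaving out each epithelial tumour gave 18 to 21 at 2-fold. Ratios of the high-amplified to the not/low-amplified mean were 12.1 to 20.1 for Pcdha, 2.69 to 3.03 for Pcdhb, 3.18 to 3.86 for Pcdhg and 3.12 to 3.52 for all members when each tumour was left out; scaling by total counted reads (CPM) or thinning to the lowest total moved them by less than the spread between tumours. The alternatives without MS1218.2 for separated groups, CPM scaling of those, Pcdhg without Pcdhgc3, leaving tumours out of the sums and leaving tumours out of the sarcoma comparison were added after seeing the data. No paired analysis was possible because the replicate numbers were given in accession order and mark no shared litter, batch or day.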
